A study of Mus musculus with 18 samples.

Results

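Collagens are extracellular matrix proteins, and 44 of the 27743 genes in a bulk RNA-seq table of mouse skin flaps carry a collagen gene symbol (Col, a chain type number, the letter a and a chain number). These 44 genes were picked by symbol, with earlier results of these data known, and sorted here by the structure their proteins build. There are 11 fibrillar genes, 8 of the basement membrane, 2 of the epidermal anchoring structures, 6 of beaded filaments, 9 fibril-associated, 3 short chains of hexagonal networks, 3 further transmembrane collagens and 2 others. RNA was taken from the skin of flaps on day 7, in 6 groups of 3 libraries each. Control flaps were left without further treatment after the flap had been raised. The other 5 groups had a printed mesh spacer under the flap: D15L150, D100L150 and D150L150 share L150, and D15L100 and D15L200 share D15 with the first of these. The meshes varied in diameter and spacing, but the labels give no unit for D or L and do not name the strain, age, sex or genotype of the mice. Whether the 3 libraries of a group come from separate animals is not stated either, so every p-value below measures the spread between libraries, which may be technical.

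A collagen molecule is 3 chains wound into a triple helix, built from repeating triplets that begin with glycine, the smallest amino acid. Collagens I, III and V copolymerise into the fibrils that give the dermis its tensile strength, and skin wounds lay down collagen III and then collagen I as granulation tissue forms. Collagen IV forms the sheet-like network of basement membranes below the epidermis and around vessels, muscle fibres and nerves. Collagens XVII and VII fasten the epidermis to the dermis, through hemidesmosomes and anchoring fibrils.

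The fibrillar collagens could be told from the other classes in the coding sequence, by the spacing of glycine codons (GGN). The longest unbroken series of codon triplets that each begin with a glycine codon held 216 to 344 repeats in the 8 fibrillar genes with a matched coding sequence. It held 113 at most in the 27 genes of the other classes, and 30 to 66 in the basement membrane class. The other classes overlapped in this measure, with 37 to 87 in the beaded filament class. Coding sequences for 35 of the 44 genes were read from GENCODE transcripts on GRCm38 (mm10). Fragments of 4 of them are shown 5′ to 3′ to contrast the classes, with the glycine codons of a series in capitals. Those of Col3a1 (codons 164 to 193), Col1a2 (97 to 126) and Col17a1 (651 to 680) are the first 30 codons of the longest series of each gene. They are unbroken by that choice. The stretch of Col4a1 (148 to 187) was instead chosen to span one of the interruptions typical of collagen IV.
Col3a1: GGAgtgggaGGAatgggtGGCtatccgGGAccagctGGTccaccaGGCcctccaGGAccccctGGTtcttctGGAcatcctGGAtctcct
Col1a2: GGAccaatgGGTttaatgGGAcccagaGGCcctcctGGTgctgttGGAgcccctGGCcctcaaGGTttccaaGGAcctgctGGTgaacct
Col17a1: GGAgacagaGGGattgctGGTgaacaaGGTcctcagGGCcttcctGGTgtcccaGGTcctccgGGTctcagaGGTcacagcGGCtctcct
Col4a1: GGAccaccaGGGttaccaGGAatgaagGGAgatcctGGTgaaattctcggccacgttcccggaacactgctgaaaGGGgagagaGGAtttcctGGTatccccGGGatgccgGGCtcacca

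Within the whole coding sequence, Col4a1 held 22 such series of at least 4 repeats, Col17a1 held 17 and Col3a1 held 2. In the anchoring class, the longest series of Col17a1 held 55 repeats and that of Col7a1 held 75.

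Libraries were of like depth, with 28422344 to 35327357 gene-assigned fragments. The tissue label held: fibroblast, keratinocyte, macrophage and endothelial markers were all at 1 FPKM or more in every library, where FPKM is fragments per kilobase of gene, scaled to library depth. Skeletal muscle markers were also high, with a summed level of 1609 to 14538 FPKM, so the tissue held muscle besides skin. Cartilage markers summed to 0.140 to 2.88 FPKM. Control 1 and D100L150 1 stood apart on the first principal component of all genes, at -69.9 and -49.7, with the other 16 libraries between -23.9 and 37.5. In bulk tissue, fewer cells of a type and less RNA per cell cannot be told apart. Values without Control 1 or D100L150 1 stand beside many of the differences described below, but not beside all.

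Collagen RNA was a large share of these flaps and most of it was fibrillar. Collagen genes took between 2.18% (D100L150 1) and 7.31% (D15L150 1) of all gene-assigned fragments, with a median of 5.24%. Only 3 genes, Col3a1, Col1a1 and Col1a2, averaged 1000 FPKM or more, and together they made up 64.8% to 87.1% of the summed collagen FPKM of a library. A further 6 genes averaged 100 to 1000 FPKM, 10 averaged 10 to 100, 6 averaged 1 to 10 and 19 were under 1. Each class other than the last held a gene averaging above 1 FPKM.

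**Figure D1:**
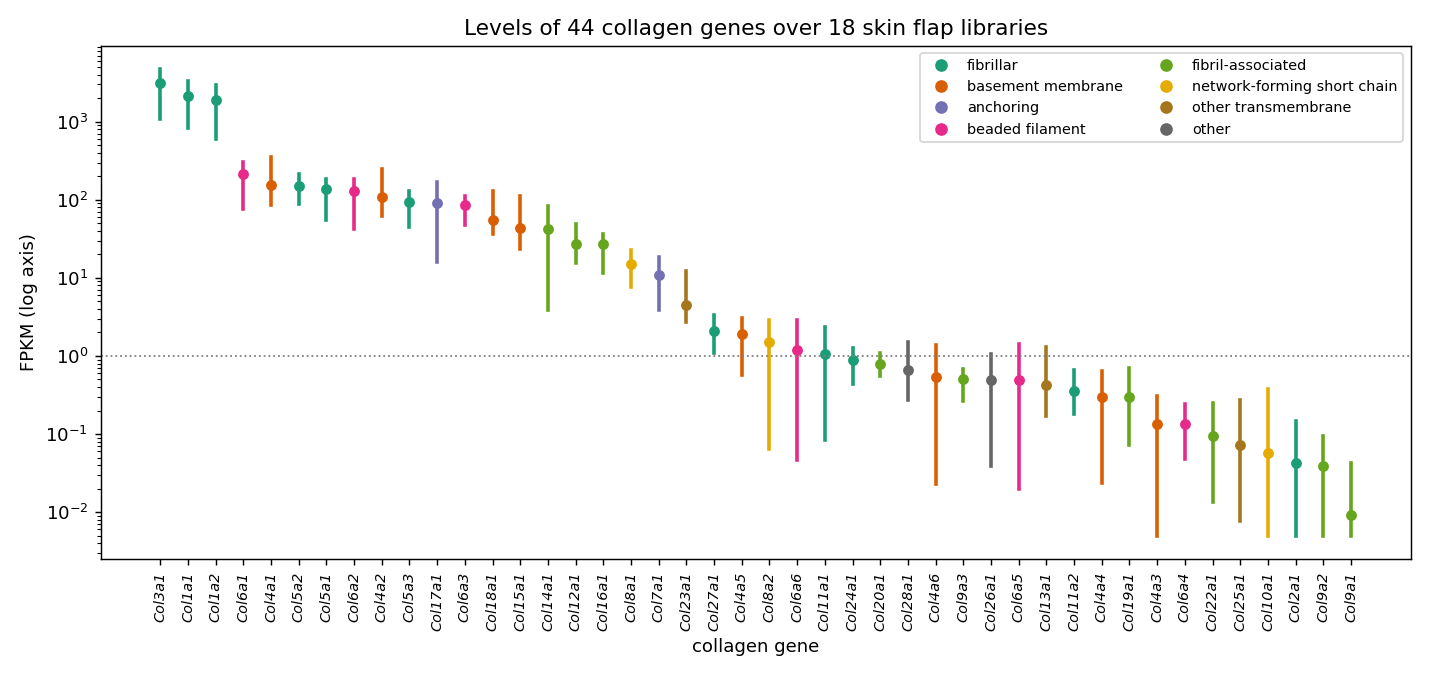
Levels of the 44 collagen genes, one gene per column in order of mean level, on a logarithmic FPKM axis. Points are means over 18 libraries, lines run from the lowest to the highest library (values under 0.005 FPKM are drawn at 0.005), colours mark the structural class and the dotted line marks 1 FPKM. Col3a1, Col1a1 and Col1a2 stand above 1000 FPKM on average and 19 genes lie below 1 FPKM.

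In the low-value filter used for testing (1 FPKM or more in at least 3 libraries), 27 collagen genes passed: 9 fibrillar, 5 basement membrane, 2 anchoring, 4 beaded filament, 3 fibril-associated, 2 network, 1 transmembrane and 1 other. The 17 that did not pass had means of at most 0.783 FPKM and no library above 1.41 FPKM. They include Col2a1, the fibrillar collagen of cartilage (0 to 0.145 FPKM), Col9a1 and Col9a2, which decorate its fibrils (at most 0.0426 and 0.0950 FPKM), and Col10a1 of hypertrophic cartilage (at most 0.378 FPKM). Col9a1 was counted with 6 fragments at most in any library. The basement membrane chains Col4a3, Col4a4 and Col4a6 were also below the filter, with highest values of 0.308, 0.633 and 1.39 FPKM.

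No collagen gene differed between groups at an adjusted p under 0.05 in any of the 14 comparisons by limma on log2(FPKM + 1). In the mean of the 5 spacer groups against Control, here called the spacer mean, 0 of 27 collagen genes passed, where 3.56% of the 13078 genes tested did. At an unadjusted p under 0.05 there were 6 of 27 collagen genes, near the 22.4% of all genes. These 6 were Col27a1, Col15a1, Col18a1, Col4a1 and Col4a2 with lower values under spacers and Col17a1 with higher values. Without Control 1, 1 of 27 was at an unadjusted p under 0.05. The median within-group SD of log2(FPKM + 1) was 0.44 for the tested collagen genes and 0.21 for all genes tested.

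All 5 tested members of the basement membrane class were lower in the spacer mean, though none passed the test, with a median log2 difference of -0.65, where all genes had -0.04. The fibrillar class was split, with 6 of 9 members higher and a median of 0.06. The 4 beaded filament members centred on -0.02. Much of the basement membrane difference rested on 1 library: without Control 1 the median was -0.27 for the basement membrane class, still with 5 of 5 lower, and -0.27 for the fibrillar class, then with 8 of 9 lower.

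**Figure D2:**
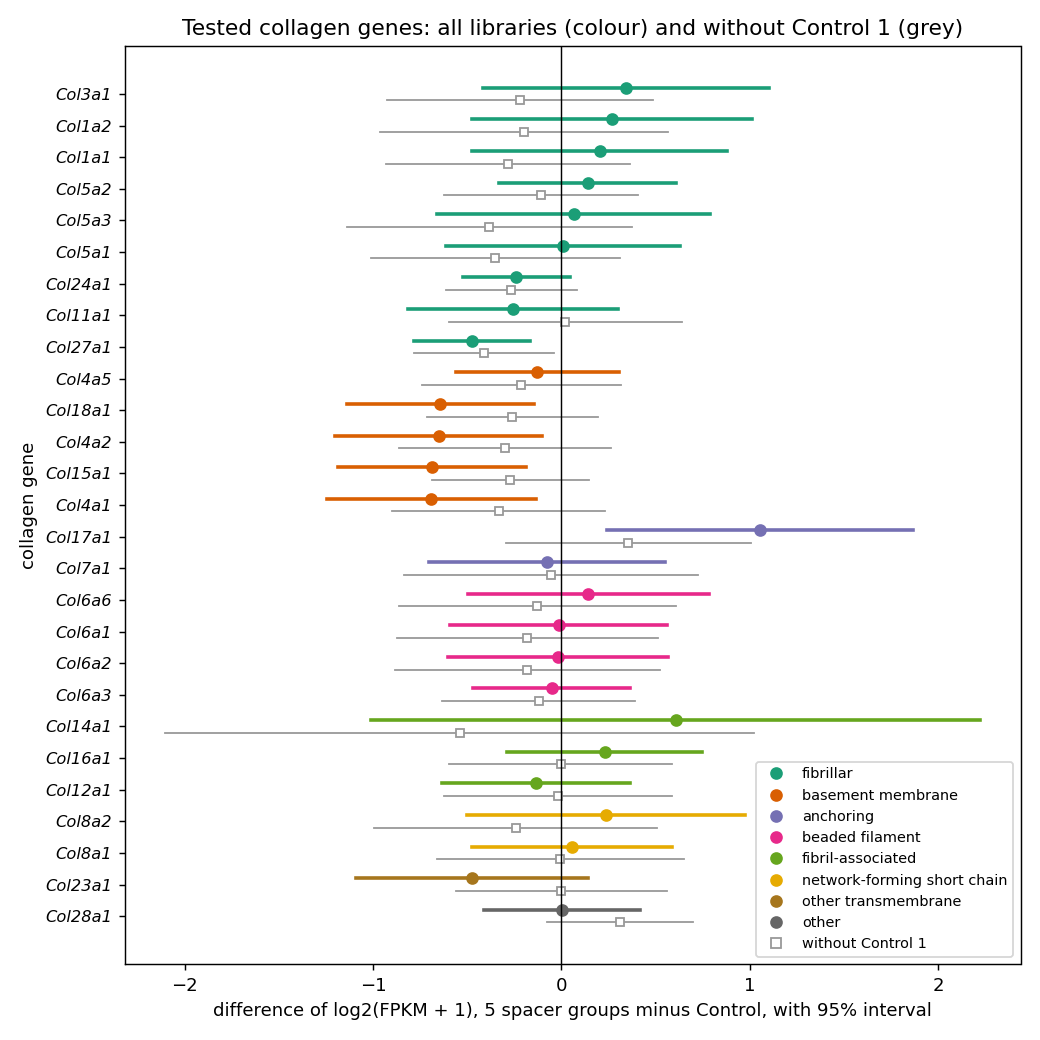
Differences of log2(FPKM + 1), mean over all 5 spacers minus Control, with 95% intervals, for the 27 tested collagen genes in class order. Coloured points use all 18 libraries and grey squares leave out Control 1: without it the fibrillar genes Col1a1, Col1a2 and Col3a1 change sign, to -0.28, -0.20 and -0.22.

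The fibrillar collagens carried the bulk of the RNA. Col3a1 (chr1:45311538-45349706), the chain of collagen III in pliable and healing skin, stood at 1096, 3111 and 4066 FPKM in Control, 3709, 3603 and 2915 in D15L100, 4703, 4160 and 3123 in D15L150, 4126, 4402 and 1822 in D15L200, 1410, 3584 and 2365 in D100L150, and 2771, 3104 and 2289 in D150L150. Col1a1 (chr11:94936224-94953042), the main chain of collagen I, stood at 920, 2347 and 2693 FPKM in Control, 2500, 2393 and 1965 in D15L100, 3355, 2771 and 2531 in D15L150, 2984, 2872 and 1444 in D15L200, 843, 2175 and 1431 in D100L150, and 2152, 1902 and 1485 in D150L150. Both genes were lowest in Control 1 and D100L150 1 and highest in D15L150 1. Every spacer group overlapped Control for both genes.

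Col3a1 had a log2 difference of 0.34 in the spacer mean (95% interval -0.41 to 1.10, adjusted p = 0.603). For Col1a1 the difference was 0.20 (-0.47 to 0.88), and for Col1a2, the second collagen I chain with a range of 594 to 2979 FPKM, it was 0.27. Col1a2 was above every Control library in D15L150. The intervals span both directions, so neither a rise nor a fall of the major fibrillar collagens was detectable. Without Control 1 the 3 differences turned to -0.22 for Col3a1, -0.28 for Col1a1 and -0.20 for Col1a2, none past the threshold. Col5a1, Col5a2 and Col5a3, the collagen V chains that start and limit fibril growth, averaged 137, 150 and 93.0 FPKM and ranged 3.29-fold, 2.40-fold and 2.91-fold over libraries.

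The shorter glycine series, of 216 and 217 repeats, belong to Col24a1 and Col27a1, low-level fibrillar genes. Col27a1 (chr4:63214004-63334991), of the second of these series, stood at 3.34, 3.26 and 2.38 FPKM in Control, 2.28, 2.03 and 2.06 in D15L100, 2.25, 2.13 and 1.29 in D15L150, 2.34, 1.87 and 1.82 in D15L200, 1.15, 2.40 and 1.09 in D100L150, and 2.27, 1.60 and 1.78 in D150L150. Each spacer library other than D100L150 2 lay below the lowest Control library. It had the smallest p of all collagen genes in the spacer mean, at a log2 difference of -0.48 ± 0.14 (SE, adjusted p = 0.0778), and in D100L150 against Control, at -0.68 ± 0.19 (adjusted p = 0.0776). Both missed the threshold. Without D100L150 2 alone they passed, at -0.52 (adjusted p = 0.0335) and -0.91 (adjusted p = 0.0275). Without Control 1 the difference in the mean comparison was -0.41 (adjusted p = 0.419). The counts behind it were 268 to 922 fragments a library.

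Col24a1 stood at 1.06, 1.15 and 1.23 FPKM in Control, 1.15, 0.926 and 1.07 in D15L100, 1.22, 0.510 and 0.444 in D15L150, 0.902, 0.610 and 0.748 in D15L200, 0.505, 1.06 and 0.646 in D100L150, and 1.28, 0.859 and 0.613 in D150L150. It was below every Control library in D15L200 and, barely, in D100L150. The fitted difference in the spacer mean was -0.24 (adjusted p = 0.338). Col11a1, which joins collagen V in fibrils, ranged from 0.0844 to 2.36 FPKM, with its lowest value in D100L150 1 and its highest in Control 1.

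Of the 8 basement membrane genes, the 4 with the highest levels, Col4a1, Col4a2, Col15a1 and Col18a1, were highest in Control 1. Col4a3, Col4a4, Col4a5 and Col4a6 were not, and Col4a3 was at 0 FPKM there. Col4a1 (chr8:11198423-11312826) stood at 358, 137 and 210 FPKM in Control, 118, 119 and 159 in D15L100, 165, 126 and 85.0 in D15L150, 119, 102 and 183 in D15L200, 139, 162 and 155 in D100L150, and 186, 146 and 105 in D150L150. Col4a2 (chr8:11312805-11449287), its partner in the ubiquitous collagen IV molecule, stood at 246, 94.3 and 149 FPKM in Control, 85.4, 83.0 and 109 in D15L100, 121, 96.0 and 62.3 in D15L150, 83.6, 74.8 and 132 in D15L200, 95.3, 113 and 111 in D100L150, and 133, 95.5 and 76.2 in D150L150. Control 3 was next highest for both genes, and Control 2 lay inside the spread of the spacer libraries.

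Col4a1 was lower by a log2 difference of -0.69 ± 0.26 in the spacer mean (adjusted p = 0.142) and Col4a2 by -0.65 ± 0.26 (adjusted p = 0.156), neither past the threshold. Without Control 1 these were -0.33 and -0.30. Markers of blood endothelium, a cell type rich in collagen IV, moved alongside: the summed level of Pecam1, Cdh5, Kdr, Tek and Cldn5 was 380 FPKM in Control 1, 122 and 197 in Control 2 and 3, and had a median of 131 over all libraries. All 5 markers were at 1 FPKM or more in every library. In the mean comparison 5 of 5 were lower at an unadjusted p under 0.05 (22.4% of all genes in either direction) and 0 of 5 passed after adjustment, with a median difference of -0.76. That median includes Control 1, the highest library of the summed level, and is not given here without it. The part of the endothelial markers in the collagen IV values was not tested.

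Col15a1 and Col18a1 are the multiplexin collagens of vascular and epithelial basement membranes, and collagen XVIII is the source of endostatin. Col15a1 stood at 112, 41.0 and 52.8 FPKM in Control, 38.3, 40.4 and 43.0 in D15L100, 49.3, 43.9 and 32.9 in D15L150, 41.4, 36.1 and 53.4 in D15L200, 23.4, 43.3 and 32.1 in D100L150, and 37.8, 37.6 and 33.0 in D150L150. Col18a1 stood at 131, 51.0 and 67.3 FPKM in Control, 52.7, 36.5 and 56.9 in D15L100, 45.3, 41.8 and 40.7 in D15L150, 43.5, 37.4 and 72.8 in D15L200, 59.7, 53.8 and 46.7 in D100L150, and 61.1, 49.0 and 46.1 in D150L150. Col15a1 in D150L150 and Col18a1 in D15L150 lay below all 3 Control libraries.

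The fitted log2 differences in the spacer mean were -0.69 ± 0.23 for Col15a1 (adjusted p = 0.109) and -0.64 ± 0.23 for Col18a1 (adjusted p = 0.130). Without Control 1 they were -0.27 and -0.26. In D100L150 alone Col15a1 was at -0.95 ± 0.30 (adjusted p = 0.110), and at -0.53 without Control 1. In D15L150 alone Col18a1 was at -0.83 ± 0.30 (adjusted p = 0.154), and at -0.45 without Control 1. None passed. The minor chain Col4a5 ranged from 0.566 to 3.06 FPKM and did not follow the others, with its highest value in D150L150 3 and a difference of -0.13 in the mean comparison (-0.21 without Control 1).

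**Figure D3:**
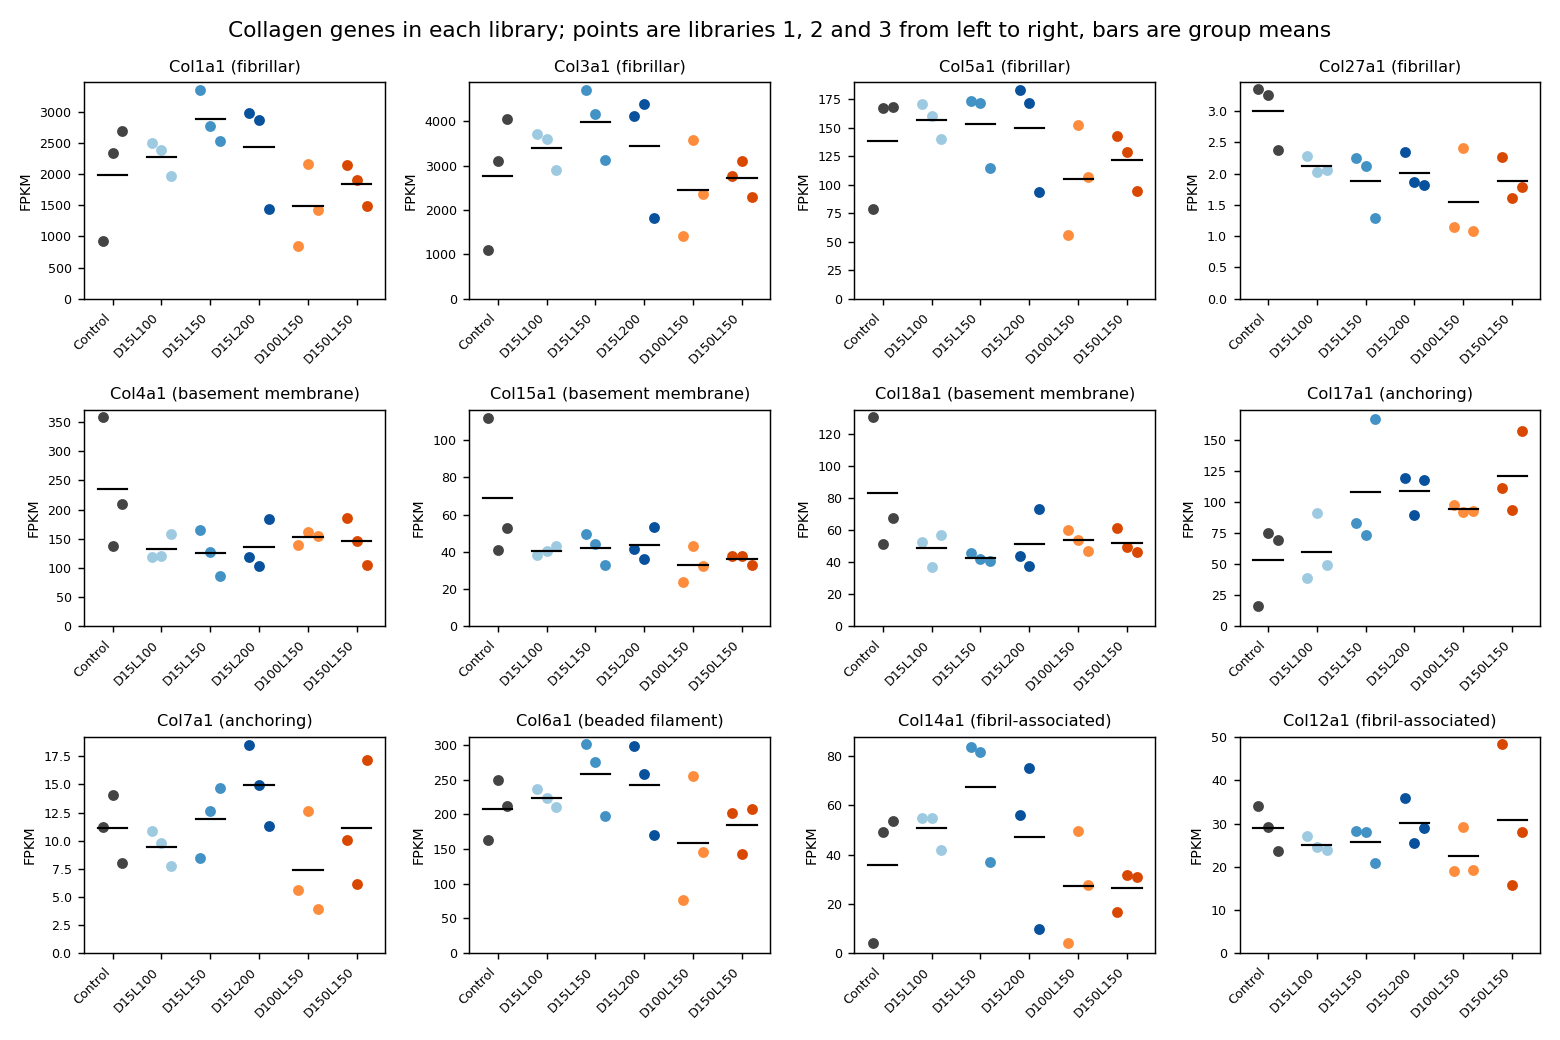
FPKM of 12 collagen genes in each library, on linear axes from 0, with one panel per gene. Points are libraries 1, 2 and 3 of each group from left to right and bars are group means: Control 1 is the highest point for Col4a1, Col15a1 and Col18a1 and the lowest for Col3a1, Col17a1 and Col14a1.

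Of the anchoring collagens, Col17a1 had the largest positive difference of all collagen genes in the spacer mean, short of the threshold. Col17a1 (chr19:47646344-47692094) encodes a transmembrane collagen of basal keratinocytes in the hemidesmosome. It stood at 16.1, 75.2 and 68.9 FPKM in Control, 38.3, 91.3 and 49.2 in D15L100, 83.3, 73.2 and 167 in D15L150, 120, 89.4 and 118 in D15L200, 97.9, 91.6 and 92.4 in D100L150, and 112, 93.7 and 158 in D150L150. All libraries of D15L200, D100L150 and D150L150 were above every Control library, while those of D15L100 and D15L150 overlapped Control. The difference in the spacer mean was 1.05 ± 0.38 (adjusted p = 0.127), and in D150L150 it was 1.41 ± 0.49 (adjusted p = 0.133). Without Control 1 they were 0.36 (adjusted p = 0.661) and 0.71.

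Keratinocyte markers moved with Col17a1. The summed level of Krt5, Krt14, Krt1, Krt10, Dsp and Trp63 was 1260, 3549 and 3134 FPKM in Control 1, 2 and 3 and reached 10218 in D15L150 3, which was also the highest library for Col17a1. Of the 6 markers 2, Krt14 and Dsp, passed the test as higher in the spacer mean, and neither did without Control 1. The part of the keratinocyte content in the Col17a1 values was not tested.

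Col7a1 (chr9:108953586-108984875), the chain of anchoring fibrils, stood at 11.2, 14.1 and 7.98 FPKM in Control, 10.9, 9.75 and 7.75 in D15L100, 8.45, 12.6 and 14.7 in D15L150, 18.5, 14.98 and 11.3 in D15L200, 5.61, 12.7 and 3.91 in D100L150, and 10.1, 6.10 and 17.2 in D150L150. It did not share the pattern of Col17a1, with a difference of -0.08 in the spacer mean (95% interval -0.70 to 0.55). The ratio of Col17a1 to Col7a1 ran from 1.44 in Control 1 to 23.6 in D100L150 3.

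Collagen VI chains build beaded filaments around cells. Col6a1 stood at 163, 250 and 212 FPKM in Control, 237, 224 and 210 in D15L100, 301, 276 and 198 in D15L150, 298, 258 and 170 in D15L200, 76.0, 255 and 146 in D100L150, and 202, 144 and 208 in D150L150. Col6a2 stood at 98.4, 149 and 129 FPKM in Control, 150, 136 and 129 in D15L100, 183, 171 and 120 in D15L150, 179, 155 and 105 in D15L200, 42.3, 150 and 88.9 in D100L150, and 118, 85.7 and 121 in D150L150. Their lowest library was D100L150 1 and their highest D15L150 1, as for collagen I, and their differences in the spacer mean were -0.01 and -0.02, and -0.18 for both without Control 1. Col6a3, the long chain of the main trio, stood at 79.7, 97.0 and 87.6 FPKM in Control, 83.3, 92.1 and 84.6 in D15L100, 113, 100 and 75.6 in D15L150, 110, 92.3 and 77.9 in D15L200, 47.0, 108 and 67.4 in D100L150, and 105, 67.6 and 76.9 in D150L150. It varied 2.39-fold, less than its partners.

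Col6a6, which can take the place of Col6a3 in the molecule, stood at 0.302, 1.84 and 0.830 FPKM in Control, 1.42, 1.50 and 0.903 in D15L100, 2.39, 2.92 and 1.04 in D15L150, 2.18, 1.41 and 0.329 in D15L200, 0.0459, 1.53 and 0.422 in D100L150, and 0.574, 0.526 and 1.17 in D150L150. D15L150 2 was highest and D100L150 1 lowest, and every group overlapped Control.

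Fibril-associated collagens bind to the surface of fibrils. Col14a1, which limits fibril width, stood at 3.85, 49.3 and 53.7 FPKM in Control, 54.9, 55.0 and 42.0 in D15L100, 83.9, 81.5 and 37.2 in D15L150, 55.9, 75.2 and 9.81 in D15L200, 4.11, 49.7 and 27.8 in D100L150, and 16.5, 31.7 and 30.7 in D150L150. Its 21.8-fold range was the widest among collagen genes averaging 10 FPKM or more, set by 3.85 in Control 1 and 83.9 in D15L150 1. Its difference of 0.61 in the spacer mean turned to -0.54 without Control 1.

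Col12a1, of stress-bearing tissue, stood at 34.0, 29.1 and 23.7 FPKM in Control, 27.0, 24.6 and 23.8 in D15L100, 28.4, 28.0 and 20.8 in D15L150, 36.0, 25.5 and 29.0 in D15L200, 19.0, 29.2 and 19.3 in D100L150, and 48.5, 15.7 and 28.0 in D150L150. The highest and the lowest of these values are both from D150L150. Col16a1 stood at 16.1, 28.8 and 24.9 FPKM in Control, 31.5, 28.3 and 24.3 in D15L100, 33.4, 35.3 and 29.1 in D15L150, 36.7, 35.8 and 22.1 in D15L200, 11.4, 33.1 and 17.3 in D100L150, and 26.3, 20.8 and 30.7 in D150L150. All 3 D15L150 libraries of Col16a1 lay above the highest Control library.

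The short chain collagens of hexagonal networks had unlike patterns. Col8a1, of vessels and remodelling tissue, stood at 12.6, 17.1 and 12.2 FPKM in Control, 18.2, 19.1 and 20.2 in D15L100, 19.0, 22.9 and 10.6 in D15L150, 14.0, 12.5 and 8.73 in D15L200, 10.5, 16.7 and 11.1 in D100L150, and 20.4, 7.56 and 15.5 in D150L150. Col8a2 stood at 0.0638, 2.31 and 1.50 FPKM in Control, 2.33, 1.77 and 1.62 in D15L100, 1.22, 2.92 and 1.52 in D15L150, 2.88, 1.78 and 0.904 in D15L200, 0.111, 1.36 and 0.819 in D100L150, and 1.28, 0.360 and 2.73 in D150L150. Col8a2 was near 0 in Control 1 and D100L150 1, and its ratio to Col8a1 varied 40.6-fold. Col8a1 was above all Control libraries in D15L100.

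Of the transmembrane collagens, Col23a1 stood at 12.2, 3.77 and 4.07 FPKM in Control, 3.76, 2.72 and 3.36 in D15L100, 3.68, 3.15 and 5.43 in D15L150, 3.31, 2.69 and 7.03 in D15L200, 3.88, 4.75 and 3.35 in D100L150, and 6.78, 3.62 and 3.37 in D150L150. Control 1 was again the highest, and the difference in the spacer mean was -0.47 (adjusted p = 0.349). Without Control 1 it was -0.00016. Col13a1, found at cell junctions, stood at 0.953, 0.426 and 0.411 FPKM in Control, 0.390, 0.264 and 0.277 in D15L100, 0.292, 0.172 and 0.264 in D15L150, 0.294, 0.296 and 1.31 in D15L200, 0.499, 0.470 and 0.183 in D100L150, and 0.268, 0.525 and 0.412 in D150L150. It was below the filter, with its highest values in D15L200 3 and Control 1.

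The last class holds Col28a1 and Col26a1. Col28a1 stood at 1.50, 0.287 and 0.341 FPKM in Control, 0.860, 0.516 and 1.28 in D15L100, 0.837, 1.28 and 0.275 in D15L150, 0.663, 0.649 and 0.352 in D15L200, 0.544, 0.391 and 0.281 in D100L150, and 0.744, 0.520 and 0.659 in D150L150. Control 1 was its highest library, and its difference in the spacer mean was 0.00 (0.31 without Control 1, adjusted p = 0.528). Col26a1 stood at 0.689, 0.984 and 0.370 FPKM in Control, 1.06, 0.431 and 0.840 in D15L100, 0.418, 0.690 and 0.216 in D15L150, 0.444, 0.401 and 0.202 in D15L200, 0.0388, 0.780 and 0.172 in D100L150, and 0.478, 0.152 and 0.509 in D150L150. It was below the filter and lowest in D100L150 1.

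Setting the classes side by side shows 3 libraries at the low end of fibrillar collagen. The summed fibrillar level was 3037 FPKM in Control 1, 3073 in D100L150 1 and 4726 in D15L200 3, against a median of 8075 and a maximum of 11533 in D15L150 1. The basement membrane sum was 849 FPKM in Control 1, against a median of 329. The fibrillar to basement membrane ratio therefore ran from 3.58 in Control 1 to 41.0 in D15L200 2. By group, the ratio was 15.7 ± 10.8 in Control, 26.3 ± 6.60 in D15L100, 33.1 ± 3.93 in D15L150, 29.2 ± 16.3 in D15L200, 15.7 ± 6.18 in D100L150 and 19.7 ± 2.48 in D150L150 (SD, n = 3). The fibroblast marker sum was also lowest in D100L150 1, at 507 FPKM, with 814 in Control 1 and a median of 1293. Dcn alone gave 417 and 564 FPKM of these 2 sums, and the markers did not move as one in Control 1. Dpt, Lum and Fbln1 were lower there than in Control 2 and 3, and Dcn and Pdgfra lay between those libraries. Pdgfrb was at its highest of all libraries in Control 1, at 40.1 FPKM. The part of fibroblast content in the fibrillar values was not tested.

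**Figure D4:**
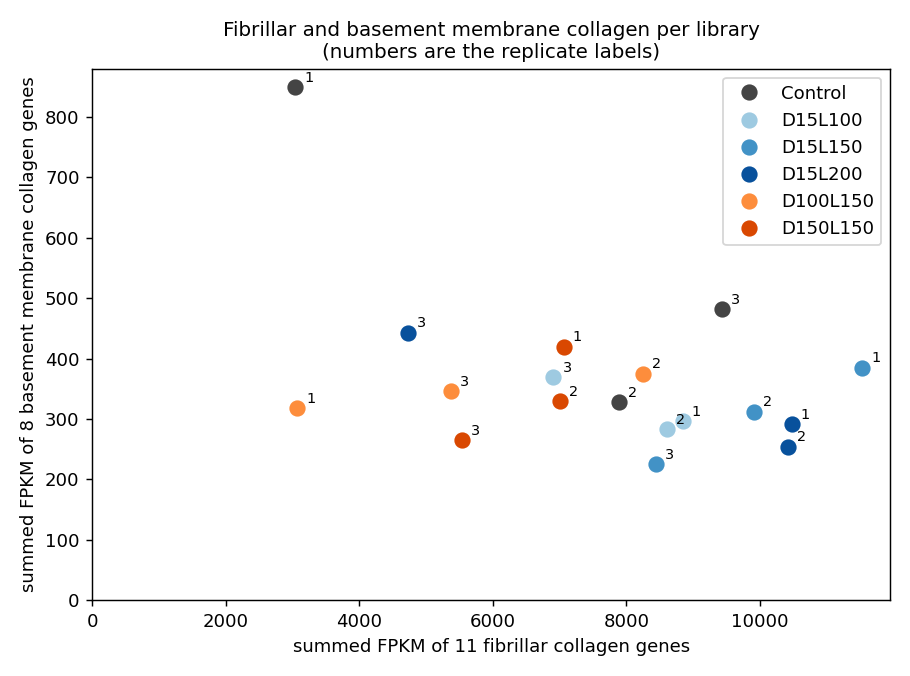
Summed FPKM of the 8 basement membrane collagen genes against that of the 11 fibrillar collagen genes, one point per library on linear axes from 0, coloured by group and numbered by replicate label. Control 1 lies alone at 3037 and 849, and the low fibrillar end is shared by D100L150 1 at 3073.

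Paired chains of collagens IV and VI kept near-fixed ratios while their levels varied. Over the 18 libraries the ratio of Col4a1 to Col4a2 stayed between 1.31 and 1.53, a 1.16-fold range, while the levels ranged 4.21-fold and 3.95-fold. For Col6a1 to Col6a2 the ratio stayed between 1.58 and 1.80, 1.14-fold, with levels ranging 3.96-fold and 4.34-fold. Col1a1 to Col1a2 was looser, from 0.997 in D150L150 3 to 1.42 in D100L150 1, and Col6a1 to Col6a3 ranged 1.76-fold. Col5a2 lies near Col3a1 on chromosome 1, and the ratio of Col5a2 to Col3a1 ranged 2.07-fold with its highest value in Control 1.

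**Figure D5:**
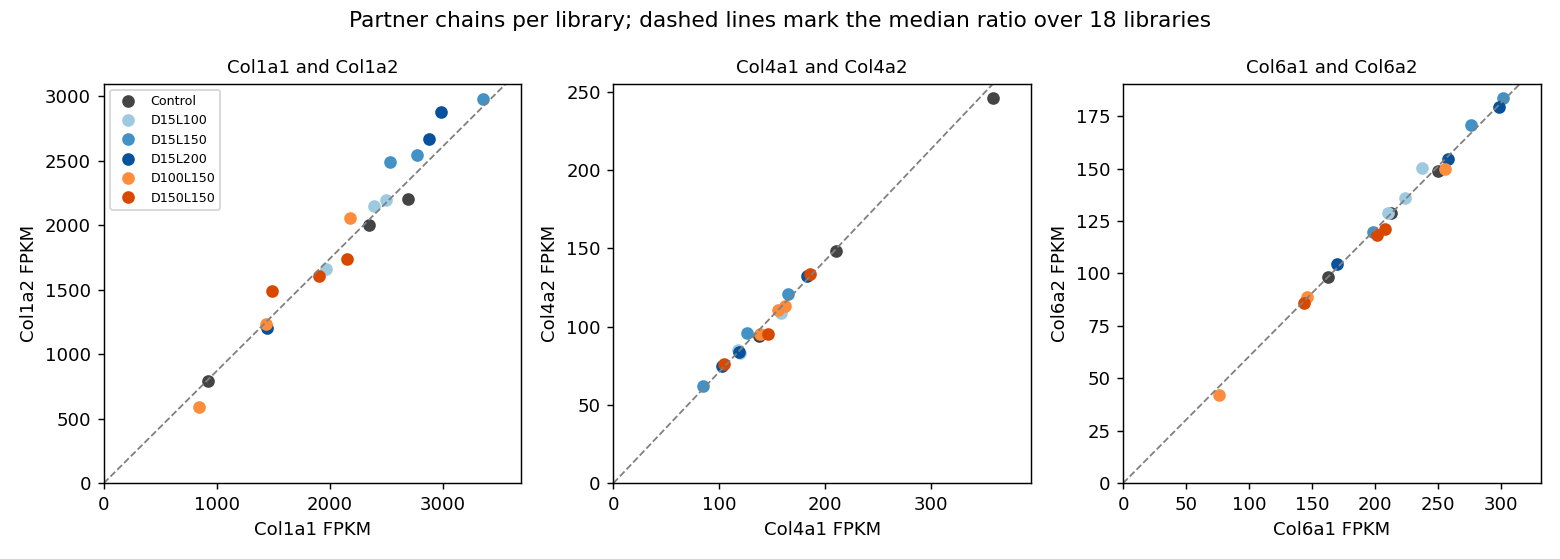
FPKM of partner chains in 18 libraries on linear axes from 0, one panel each for collagens I, IV and VI, coloured by group. Dashed lines mark the median ratio: the Col4a1 to Col4a2 and Col6a1 to Col6a2 points stay within a ratio range of 1.16-fold and 1.14-fold.

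Col4a1 and Col4a2 are read in opposite directions from starts that overlap on chromosome 8. Their annotated RefSeq starts share chr8:11312805-11312826 (GRCm38.p6), printed here because the pair held its ratio so closely.
Col4a1 and Col4a2 shared start: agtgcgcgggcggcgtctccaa
Whether counting used strand is not given in the sources used here, so reads in this overlap cannot be assigned to one of the pair. In the 250 bases upstream of the start, 35 of the 44 genes had a RefSeq window. Some genes had more than 1 window, and some windows overlapped exons of their own gene, by up to 241 bases for Col18a1. A gene was counted if any of its windows held the letters. The GC box letters GGGCGG, on either strand, were in 21 of these 35 genes (60.0%) and in 35.4% of 27025 genes. The CCAAT letters were in 13 (37.1%, against 37.5%) and the TATAAA letters in 5 (14.3%, against 14.3%). A match is a description of the letters only.

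Against Control, single spacer groups gave like results. In D15L100, 3 of 27 collagen genes were at an unadjusted p under 0.05 (3.30% of all genes), all of the basement membrane class, and the smallest adjusted p was 1.000. In D15L150 there were 5 (19.8%), in D15L200 3 (17.3%), in D100L150 4 (21.1%) and in D150L150 3 (20.4%), with 0 passing after adjustment in each. Without Control 1 the unadjusted counts were 1 in D15L100, 0 in D15L150, 0 in D15L200, 4 in D100L150 and 0 in D150L150. After adjustment, the shares of all genes called were 0% in D15L100 and D15L150, 1.56% in D15L200, 1.38% in D100L150 and 2.42% in D150L150. Libraries of the 2 groups did not overlap for 3 collagen genes in D15L100 (6.07% of all genes), 5 in D15L150 (26.4%), 3 in D15L200 (25.0%), 3 in D100L150 (21.8%) and 3 in D150L150 (26.4%), shares below the background in each group other than D15L100. These comparisons share the Control libraries and are not independent of each other.

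In D100L150 most tested collagen genes sat low against Control. There 25 of 27 collagen genes had a negative difference, with a median of -0.38 where all genes had -0.05, and none passed. The exceptions were Col17a1, at 1.08, and 1 fibrillar gene, at 0.21. Without D100L150 1 the count of negative differences was 18 of 27 and the median -0.09. With Control 1 kept in the fit, the shift of the median thus rested largely on D100L150 1. The fibrillar median then went from -0.38 to -0.03, while the basement membrane median went from -0.52 to -0.46. Control 1 was itself low in fibrillar collagen, at a summed 3037 FPKM. The count and the medians without Control 1 are not given here.

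Of the spacer pairs, 6 were compared, and the others were not. D100L150 and D15L150, which share L150, had the most collagen genes at an unadjusted p under 0.05 of these 6 pairs, though D150L150 against D15L150 had more without overlap. With D100L150, 22 of 27 collagen genes were lower than with D15L150 (median -0.44, all genes -0.02). At an unadjusted p under 0.05 there were 7 of 27, against 11.4% of all genes, and all 7 were lower, against 5.86%; 0 passed after adjustment, where 0% of all genes did. They were Col4a5 at -0.88 ± 0.26, Col1a2 at -1.21 ± 0.45, Col1a1 at -1.05 ± 0.41, Col6a2 at -0.90 ± 0.35, Col6a6 at -0.95, Col6a1 at -0.84 and Col16a1 at -0.76, with adjusted p from 0.412 to 0.421. Without D100L150 1 the median was -0.27, with 21 of 27 lower, and 1 gene, Col4a5 at -0.69, was at an unadjusted p under 0.05. Col1a2 was then at -0.74, Col1a1 at -0.70, Col6a2 at -0.43 and Col6a1 at -0.40. Col1a1, Col1a2 and Col4a5 were lower in all 3 D100L150 libraries than in any D15L150 library and Col18a1 was higher, 4 of 27 genes without overlap (17.1% of all genes).

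Markers of other cell types moved in the same comparison. At an unadjusted p under 0.05, 5.86% of all genes were lower in D100L150 against D15L150. The 6 fibroblast markers had a median difference of -0.91 there, with 3 of 6 lower at that threshold. Their summed level was 507 to 1377 FPKM in D100L150 and 1414 to 1635 in D15L150. The 4 Schwann cell markers had a median of -0.60 with 2 lower, at sums of 9.80 to 14.7 and 39.9 to 103 FPKM. The 3 tested tendon markers had a median of -0.88 with 2 lower, and all 4 tendon markers summed to 14.2 to 89.2 and 67.3 to 133 FPKM. The fibroblast and Schwann cell sums did not overlap between the groups, and the tendon sums did. Without D100L150 1 the medians were -0.49, -0.81 and -0.50. Adipocyte and skeletal muscle markers had lower medians, of -1.47 and -1.28, with 0 at an unadjusted p under 0.05. Without D100L150 1 these were -0.93 and -0.61. Blood endothelium markers went the other way, at a median of 0.28 with 1 of 5 higher. The part of these cell types in the collagen values was not tested.

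D150L150 also lay below D15L150 for Col1a1, Col1a2, Col3a1 and Col14a1, with no overlap between the libraries, and above it for Col18a1. These 5 genes are 5 of 27, where 12.4% of all genes had no overlap. By the test none differed, with 0 of 27 at an unadjusted p under 0.05 (4.95% of all genes). The difference was -0.66 for Col1a1 and -0.53 for Col3a1. Between D150L150 and D100L150, D15L150 and D15L100, D15L200 and D15L100, and D15L200 and D15L150 there were likewise 0 collagen genes at an unadjusted p under 0.05 (2.20%, 4.72%, 5.18% and 0.734% of all genes). Libraries did not overlap for 0 of 27 in the first of these (5.61% of all genes), 3 in the second (10.1%), 3 in the next (12.4%) and 1, Col4a5, in the last (5.95%). Over D15, D100 and D150 at L150 together the F test gave 2 of 27 unadjusted (5.74%) and over L100, L150 and L200 at D15 it gave 0 (2.89%), with 0 after adjustment in both.

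Genes that make, organise and remove collagen gave few calls. In the spacer mean against Control, 0 of 21 tested genes of intracellular collagen maturation passed limma's test, with 1 at an unadjusted p under 0.05, and 0 of 11 genes of propeptide removal and cross-linking, with 0 unadjusted. The other counts were 0 of 14 fibril-organising proteins (0 unadjusted), 0 of 9 collagen receptors (1 unadjusted), 0 of 8 collagen-degrading proteases (1 unadjusted) and 0 of 5 hemidesmosome partners (2 unadjusted). Fibril-organising proteins, such as the small leucine-rich proteoglycans, had a median difference of -0.71 in D100L150 against D15L150, with 5 of 14 lower at an unadjusted p under 0.05, against 5.86% of all genes. Without D100L150 1 the median was -0.33 and 0 of 14 were at an unadjusted p under 0.05. The fibroblast markers moved with them (median -0.91), but Lum and Dcn on that marker list are small leucine-rich proteoglycans too. The lists are therefore not independent, and the part of fibroblast content in these values was not tested. Of the 8 proteases, 6 were at an unadjusted p under 0.05 in that comparison, 4 higher and 2 lower, against 11.4% of all genes. Their median was 0.62. Without D100L150 1 it was 0.45, with 1 of 8 higher and 0 lower. In D100L150 against Control, 5 of 8 proteases were at an unadjusted p under 0.05, 4 higher and 1 lower, against 21.1% of all genes. After adjustment 0 passed in both.

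Among 11 basement membrane partners of collagen IV, 1 passed in the mean comparison. Lama5, the laminin alpha 5 chain of epidermal and vascular basement membranes, fell by 0.66 ± 0.15 on the log2 scale (adjusted p = 0.0278). It stood at 13.5, 7.89 and 8.87 FPKM in Control and between 4.40 and 7.88 in the spacer libraries, with the highest of these, in D15L200 3, just under the lowest Control library. Its call was lost without Control 1 (-0.45, adjusted p = 0.305), without Control 3 and with no filter on low values. Lama3, a chain of the laminin that anchors keratinocytes, rose in D100L150 against Control by 1.84 ± 0.38 (adjusted p = 0.0353) and in D150L150 by 1.62 ± 0.38 (adjusted p = 0.0435). These calls were lost in 6 and 11 of the 18 fits that each left out a library, Control 1 among them both times, and with no filter on low values. The call in D100L150 was also lost with only the groups compared.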

How the data were processed

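Sequencing was by bulk RNA-seq of total RNA from 18 skin libraries. The authors deposited FPKM values per gene in one table; fastp, HISAT2, HTSeq, DESeq2 and R 3.2.0 and the build mm10 are listed in the submitters' processing notes, with no order, settings or strand given. Collagen genes were found by symbol, and every one was kept for description. Tests used limma 3.58.1 in R 4.3.3 on log2(FPKM + 1), one mean per group, all 18 libraries in one fit, with trend and robust moderation, after a filter of 1 FPKM or more in at least 3 libraries (13078 of 27743 genes kept). P-values were adjusted by Benjamini-Hochberg over all genes kept, with a threshold of 0.05. A difference is on the log2(FPKM + 1) scale, which understates changes of genes near 1 FPKM. FPKM values of every gene were whole multiples of one step within 1e-07 (100.0% of genes), which gave fragment counts, used only for depth and counts behind a value. A planned limma-voom alternative on these recovered fragments is not reported, since count-based scaling was not used on a table deposited as FPKM. The fits were tested on simulated data. Other alternatives were a pseudocount of 0.1, no filter, quantile and TPM scaling, a replicate block, only the groups compared, and leaving out each library. Values in every library are given for the 2 highest genes of each class and its 2 of smallest p in the mean comparison. Collagen genes, classes and lists were chosen with earlier results of these data known. Coordinates are GENCODE M21 on GRCm38; promoter windows are RefSeq's. The labels do not say whether replicate numbers pair libraries, and the main fit used no pairing. Correlations of deviations ran from -0.66 to 0.53 over 45 same-numbered pairs, 18 of them over 0.1. With 3 libraries a group these cannot decide the question.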

Additional observations from a re-analysis of the deposited data

How the results depend on the processing

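The count of collagen genes called was 0 in all 14 comparisons and stayed 0 in 333 of 335 alternatives; the others are fits without D100L150 replicate 2, which called Col27a1, so that leaving out libraries gave 0 to 1 in the mean comparison against Control and in D100L150 against Control. With a replicate block the count was 0 in every comparison. The median correlation of deviations was 0.020 for same-numbered and 0.022 for differently numbered pairs. Whether the numbers pair libraries is not stated and is not settled by these values. Over all genes the block moved the calls in the mean comparison from 466 to 256. Both Lama3 calls, in D100L150 and in D150L150 against Control, were lost with the block. Of 542 alternatives for single genes, 536 kept direction and side of the threshold, and 4 changed sign, all without Control 1: leaving out libraries gave -0.28 to 0.49 for Col1a1, -0.20 to 0.54 for Col1a2, -0.22 to 0.72 for Col3a1 and -0.54 to 1.21 for Col14a1 in the mean comparison. The cause was not tested. With 3 libraries a group, and a spread of collagen levels above that of a typical gene, differences of the size of the intervals printed above were not detectable. The planned limma-voom alternative on fragments recovered from the FPKM steps is not reported.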
